A study of Homo sapiens with 54 samples.

Results

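The report describes 10 genes that mark pluripotent cells, POU5F1, SOX2, NANOG, LIN28A, LIN28B, SALL4, PRDM14, ZFP42, DPPA4 and TERT, in all 27 human stem cell cultures of the series. They were taken by name from the 19720 genes that the array's RefSeq accessions pair with a symbol, and all 10 were found. POU5F1 had 2 probes and each other gene had 1. Where a gene has several probes, its values are those of the probe with the highest mean signal.

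Each culture was hybridised to 2 one-colour Agilent arrays, 54 in all, which were averaged, so that a culture counts once. H1 (WA01), a human embryonic stem cell line, was grown in E8 Medium on Matrigel. In 3 experiments, a pre-culture with 100 ng/mL of basic FGF (bFGF, FGF2) was taken beside cultures of 4 days with 100 ng/mL bFGF, with 100 ng/mL FGFC, a chimeric FGF built from FGF1 and FGF2 fragments, or with no FGF. By their titles the pre-culture of experiment 2 was at passage 49 and its 4-day cultures at passage 59, while in experiments 1 and 3 the 4-day cultures were 1 passage on from the pre-culture. The medium without FGF still held TGF-beta 1. In 5 long-term systems, 1 pre-culture, 1 culture with bFGF and 1 with FGFC at the same concentration were taken. These were H1 in E8 Medium (100 ng/mL, 30 days), H1 in medium conditioned by mouse embryonic fibroblasts (MEF-CM, 5 ng/mL, 41 days), the embryonic line KhES-1 on MEF feeder cells (5 ng/mL, 30 days), the induced pluripotent line 201B7 on MEF feeder cells (10 ng/mL, 50 days) and the induced pluripotent line 253G1 in E8 Medium (100 ng/mL, 36 days). The H1 pre-culture of experiment 1 was taken as that of the 30-day cultures, which carry the same experiment number. One further H1 culture was differentiated through embryoid bodies without FGF. Both induced lines are single clones made by introducing POU5F1, SOX2 and further factors into fibroblasts, and 201B7, 253G1 and KhES-1 each stand for a single line.

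In pluripotent cells, POU5F1 (OCT4) and SOX2 bind DNA side by side and, with NANOG, hold active a network of genes that includes their own. SALL4 and PRDM14 are DNA-binding factors of the same network, ZFP42 (REX1) and DPPA4 are genes widely used as its markers, LIN28A and LIN28B are RNA-binding proteins that block the maturation of let-7 microRNAs, and TERT is the catalytic subunit of telomerase. In human embryonic stem cells, FGF and TGF-beta/activin signals keep this network active, and neural differentiation keeps SOX2 while POU5F1 and NANOG are lost.

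The promoters of NANOG, SOX2 and TERT are shown because these genes moved in different directions below. Each is the 250 bases before the annotated start in RefSeq on GRCh38.p14, read 5′ to 3′ on the gene's strand. Capitals mark, in NANOG, a SOX site (CATTGT) separated by 1 base from a POU site (ATGCAAA), here on the opposite strand. In SOX2 they mark a POU site and a GC box (GGGCGG), and in TERT 2 GC boxes and an E-box (CACGTG).
NANOG, chr12:7789152-7789401, + strand: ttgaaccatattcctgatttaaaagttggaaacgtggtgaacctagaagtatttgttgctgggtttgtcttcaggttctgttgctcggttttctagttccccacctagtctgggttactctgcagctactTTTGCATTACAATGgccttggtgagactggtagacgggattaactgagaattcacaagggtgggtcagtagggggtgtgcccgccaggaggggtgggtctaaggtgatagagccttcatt
SOX2, chr3:181711675-181711924, + strand: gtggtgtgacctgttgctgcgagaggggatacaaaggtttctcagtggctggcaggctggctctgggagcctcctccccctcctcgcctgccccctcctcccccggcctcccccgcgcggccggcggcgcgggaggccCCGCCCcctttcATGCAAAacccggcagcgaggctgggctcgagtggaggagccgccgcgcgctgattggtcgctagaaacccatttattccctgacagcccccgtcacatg
TERT, chr5:1295069-1295318, − strand: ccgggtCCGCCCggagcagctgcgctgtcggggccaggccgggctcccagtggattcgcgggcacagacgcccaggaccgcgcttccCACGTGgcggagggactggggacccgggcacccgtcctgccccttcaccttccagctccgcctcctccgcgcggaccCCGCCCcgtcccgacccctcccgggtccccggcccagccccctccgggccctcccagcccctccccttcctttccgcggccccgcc

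The SOX and POU sites with 1 base between them, searched on both strands, were found in 2 of 35116 promoters of the same length, and 1 of these was NANOG, where they begin 120 bases before the start. A POU site alone was in 3.94% of promoters, and among the 6 members with a promoter in the table it was in NANOG and SOX2. A SOX site was in 9.29% (NANOG and LIN28B), a GC box in 42.6% (SOX2, LIN28B, ZFP42, DPPA4 and TERT) and an E-box in 6.34% (LIN28B and TERT). These matches describe letters and are no measure of binding.

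Levels are given as normalized signal, the log2 of the processed signal minus the array's 75th percentile, so that 0 is the 75th percentile and 1 unit is a 2-fold step. Levels of different genes are not compared, since probes differ in brightness. Of the 10 members, 9 were well above background on all 54 arrays, and PRDM14 was so in 26 of 27 cultures. The duplicate arrays of a culture differed by a median of 0.05 to 0.14, depending on the gene, and by up to 1.34, for POU5F1 in the differentiated culture. An array signal is an average over the culture, so fewer pluripotent cells and less RNA per cell cannot be told apart. Over all arrays, 56.1% to 79.2% of probes were well above background, and no probe was saturated.

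**Figure D1:**
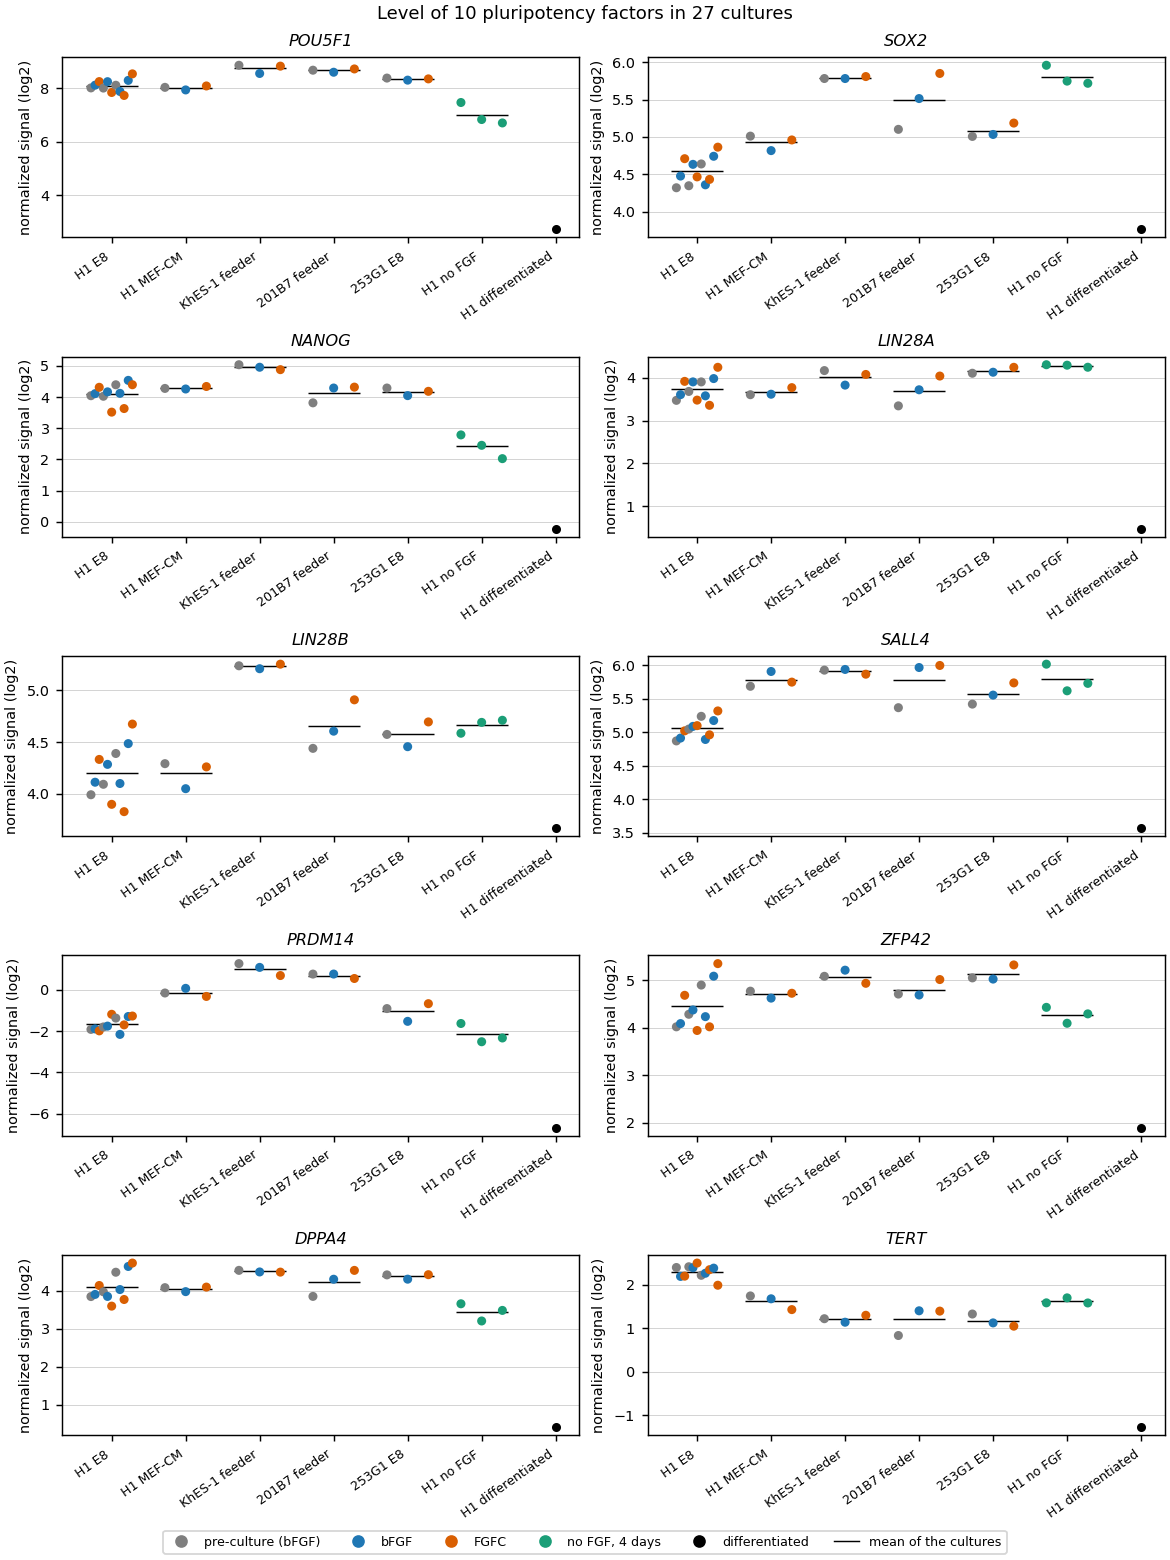
Normalized signal (log2) of each of the 10 genes in 27 cultures, 1 point per culture coloured by its FGF, grouped by cell line and medium, with the mean of each group as a line. The differentiated H1 culture is the lowest point in all 10 panels, the 3 cultures without FGF lie below all cultures with FGF for POU5F1 and NANOG and above all H1 cultures in E8 Medium with FGF for SOX2 and SALL4, and TERT is highest in H1 in E8 Medium.

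Removal of FGF for 4 days split the 10 genes. NANOG, POU5F1 and TERT fell, SOX2 and SALL4 rose, and LIN28A and LIN28B were higher in every experiment. Of all probes, 32.7% were higher and 28.6% lower in all 3 experiments against bFGF, and 19.6% and 24.4% against FGFC. Against bFGF, 5 of 10 had a limma p under 0.05 after adjustment over all 42405 probes, which is called passing here, 2 higher and 3 lower, where 12.7% of all probes passed, 5.54% higher and 7.19% lower. Against FGFC, 7 passed, 4 higher and 3 lower, where 10.8% of all probes passed, 4.72% higher and 6.07% lower. The 2 comparisons share the cultures without FGF, and both are given. This fit did not pair the cultures by experiment, and with the experiment as a block 5 of 10 passed in each comparison. The median difference of the 10 genes was -0.09 against bFGF and -0.16 against FGFC, and that of all probes 0.01 and -0.02.

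Of the core factors, NANOG changed most. Its normalized signal without FGF was 2.79, 2.45 and 2.02 in experiments 1, 2 and 3. It was 4.11, 4.17 and 4.12 with bFGF and 4.31, 3.52 and 3.63 with FGFC. The groups did not overlap, and the 3 cultures without FGF were the lowest of all cultures apart from the differentiated H1 culture. The log2 difference was -1.71 ± 0.25 (SE) against bFGF (adjusted p = 0.000957, limma, lower in 3 of 3 experiments) and -1.40 ± 0.25 against FGFC (adjusted p = 0.00391). Without experiment 3 neither passed (adjusted p = 0.0562 and 0.106), and without experiment 2 the difference from FGFC did not (0.0577).

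POU5F1 was at 7.46, 6.83 and 6.70 without FGF, at 8.11, 8.24 and 7.87 with bFGF and at 8.24, 7.84 and 7.72 with FGFC. Every culture without FGF was lower than every culture with FGF. The log2 difference was -1.08 ± 0.22 (adjusted p = 0.00855) against bFGF and -0.94 ± 0.22 (adjusted p = 0.0200) against FGFC. The other POU5F1 probe gave -1.42 ± 0.29 (adjusted p = 0.00748) and -1.26 ± 0.29 (adjusted p = 0.0158). Neither difference at the first probe passed without experiment 2 (adjusted p = 0.171 and 0.229) or experiment 3 (0.147 and 0.241). POU5F1 has near-identical copies elsewhere in the genome, and which of them a probe also reads is not known here.

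SOX2, the partner of POU5F1, moved the other way. It was at 5.96, 5.75 and 5.72 without FGF against 4.48, 4.63 and 4.36 with bFGF and 4.71, 4.46 and 4.43 with FGFC. The lowest culture without FGF was above the highest H1 culture in E8 Medium with FGF, which was at 4.86. The log2 difference was 1.32 ± 0.16 against bFGF (adjusted p = 0.000363) and 1.27 ± 0.16 against FGFC (adjusted p = 0.000520), higher in 3 of 3 experiments in both. It was the 1 member that passed in both comparisons under every alternative run (highest adjusted p = 0.0459). The mean without FGF, 5.81 ± 0.13 (SD, n = 3), and that of KhES-1 on feeder cells, 5.79 ± 0.02 (SD, n = 3), were the highest in the series and lay within their spread of each other.

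SALL4, a zinc finger partner of the core factors, was at 6.02, 5.62 and 5.73 without FGF, at 4.92, 5.09 and 4.89 with bFGF and at 5.02, 5.10 and 4.96 with FGFC, and the groups did not overlap. It rose by 0.82 ± 0.16 against bFGF (adjusted p = 0.00708) and by 0.76 ± 0.16 against FGFC (adjusted p = 0.0125). Without any 1 experiment, neither passed (adjusted p = 0.0783, 0.0670 and 0.173 against bFGF and 0.0836, 0.108 and 0.239 against FGFC, without experiments 1, 2 and 3). The differences lay between 0.64 and 0.97 under all alternatives run.

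The LIN28 genes had differences of like size and the same sign. LIN28A was at 4.30, 4.29 and 4.24 without FGF, at 3.61, 3.90 and 3.58 with bFGF and at 3.91, 3.48 and 3.36 with FGFC. LIN28B was at 4.59, 4.69 and 4.71 without FGF, at 4.11, 4.28 and 4.10 with bFGF and at 4.33, 3.90 and 3.83 with FGFC. For both genes every culture without FGF was above every 4-day culture with FGF. Against FGFC, LIN28A differed by 0.70 ± 0.19 (adjusted p = 0.0383) and LIN28B by 0.64 ± 0.18 (adjusted p = 0.0424). Against bFGF, LIN28A differed by 0.58 (95% interval 0.17 to 1.00, adjusted p = 0.0704) and LIN28B by 0.50 (0.10 to 0.89, adjusted p = 0.102), which did not pass. The calls against FGFC were lost without experiment 2 (adjusted p = 0.333 and 0.381), without experiment 3 (0.411 and 0.478), with the second arrays alone (0.0885 and 0.0668), with only the 2 arms in the fit (0.125 and 0.149), with the median of each array in place of its 75th percentile (0.0694 and 0.0787) and with the experiment as a block (0.0555 and 0.0612). Against bFGF, quantile normalization gave a pass for both (0.0177 and 0.0317).

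TERT was at 1.58, 1.70 and 1.58 without FGF, at 2.19, 2.39 and 2.26 with bFGF and at 2.20, 2.50 and 2.34 with FGFC, with no overlap. It fell by 0.66 ± 0.15 against bFGF (adjusted p = 0.0133) and by 0.73 ± 0.15 against FGFC (adjusted p = 0.00913). Against bFGF it did not pass without experiment 1 (adjusted p = 0.0734), 2 (0.146) or 3 (0.259), and against FGFC without experiment 2 (0.158) or 3 (0.248).

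The remaining genes did not pass. DPPA4 was at 3.66, 3.20 and 3.48 without FGF and at 3.90, 3.85 and 4.03 with bFGF, a difference of -0.48 (95% interval -0.95 to -0.01, adjusted p = 0.193) that was negative in 3 of 3 experiments. So were the differences of 28.6% of all probes. ZFP42 was at 4.43, 4.09 and 4.29 without FGF and at 4.09, 4.37 and 4.23 with bFGF, a difference of 0.04 (-0.53 to 0.61, adjusted p = 0.944) whose sign turned under quantile normalization, with the first arrays alone and without experiment 1. PRDM14 was at -1.63, -2.51 and -2.33 without FGF and at -1.89, -1.76 and -2.16 with bFGF, a difference of -0.22 (-0.83 to 0.39, adjusted p = 0.664). For ZFP42 and PRDM14 the groups overlapped.

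**Figure D2:**
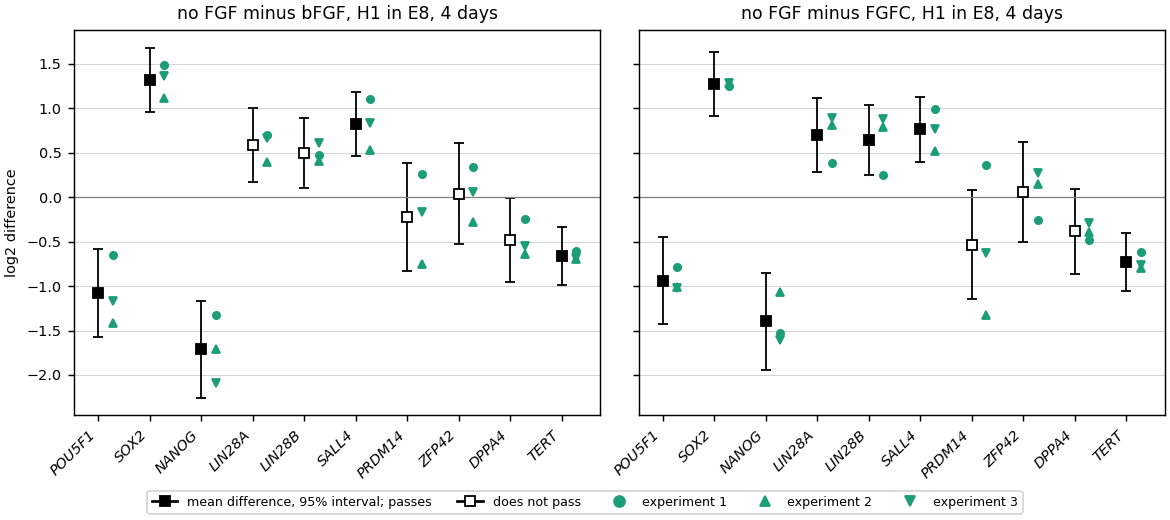
Log2 difference of each gene in H1 after 4 days without FGF, against bFGF on the left and against FGFC on the right, with its 95% interval (squares, filled where the test was passed) and the difference in each of 3 experiments (green). SOX2 and SALL4 lie above 0 and POU5F1, NANOG and TERT below 0 in all 3 experiments in both panels, and ZFP42 lies near 0.

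Genes around the members moved as follows. Of 14 other pluripotency-associated genes, 9 fell and 1 rose without FGF against bFGF, with a median difference of -1.10, and the same counts held against FGFC. The largest log2 differences below 0 against bFGF were those of CRIPTO (TDGF1), the co-receptor of NODAL (-3.32), of FOXD3, a forkhead factor (-3.31), and of DPPA2, the partner of DPPA4 (-2.65). The gene that rose was DPPA3, a germ cell and naive pluripotency marker, which was at least 4.84-fold higher, as it was not well above background on any array with bFGF. These counts stand beside 5.54% of all probes higher and 7.19% lower. In the let-7 pathway 2 of 13 genes passed against bFGF, both higher, and among 11 genes of telomerase and the telomere-binding shelterin complex 2 passed, beside 12.7% of all probes. They were DGCR8, a microRNA processing factor, higher by 0.86, and HMGA2, a let-7 target, higher by 0.65, and the shelterin subunits TERF1 (-1.55) and TINF2 (0.57). Of 11 relatives of the members, 4 rose and none fell. The 3 largest rises were those of SOX21, a SOXB factor, by 5.40 on the log2 scale although it was well above background on 4 of 6 arrays with bFGF, of PRDM1, at least 16.9-fold, and of POU3F2, a neural POU factor, at least 3.18-fold, well above background on 5 of 6 arrays without FGF. Against FGFC, CRIPTO (-3.36), FOXD3 (-3.32) and the surface marker CD9 (-2.52) fell most, DPPA3 rose by 2.26 although it was well above background on 2 of 6 arrays with FGFC, and the let-7 pathway and the relatives had the same counts. Among the telomerase and shelterin genes TERF1 alone passed, with -1.42.

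Markers of other cell types moved beside these results, and their part in them was not tested. In the cultures without FGF, the ectoderm marker PAX6 averaged -0.15 against -5.87 over the 11 H1 cultures in E8 Medium with FGF, ZIC1 averaged -2.93 against -6.76, and SOX1 averaged -6.65 against -6.84. The amnion and trophoblast marker GATA3 averaged -1.46 against -6.73, while CDX2 averaged -6.05 against -6.73 and HAND1 -5.55 against -6.07. KRT7, the brightest of that list, averaged 2.69 against 2.73. The summed signal of that list ranged from 2.63 to 3.07 without FGF and from 2.47 to 3.06 with FGF. Of the 4 ectoderm markers 2 were well above background on all arrays without FGF and 1 on all those with FGF. The summed signal of the 4 endoderm markers ranged from -0.94 to 0.02 without FGF and from -0.89 to 0.90 with FGF. That of the 4 mesoderm markers ranged from 0.05 to 1.40 and from -0.31 to 1.12. Within that list ACTA2 averaged 0.18 without FGF against -2.79 with FGF, and TBXT -5.87 against -6.47. TNNT2 averaged -2.98 against -0.57, and PDGFRB -1.06 against -0.26.

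Replacing bFGF with FGFC moved none of the 10 genes past the test, neither over 4 days nor over the 5 long-term systems. In both comparisons 0 of 42405 probes passed (0.0%) in limma's test, with 1262 and 2537 probes at an unadjusted p under 0.05. Among the members, 0 and 1 had an unadjusted p under 0.05. Over 4 days the differences lay between -0.31 for NANOG (95% interval -0.86 to 0.23) and 0.31 for PRDM14 (-0.30 to 0.92), so that a fall of NANOG by up to 0.86 stays inside the interval.

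The 3 experiments did not point the same way. In experiment 1, 9 of 10 genes were higher with FGFC, with a median difference of 0.21. In experiment 2, 7 were lower, with a median of -0.32, and in experiment 3, 6 were lower, with a median of -0.18. The shares and medians of all probes within each experiment are not given here. NANOG was 0.20 higher in experiment 1 and 0.65 and 0.49 lower in experiments 2 and 3, expressed as 4.31, 3.52 and 3.63 with FGFC against 4.11, 4.17 and 4.12 with bFGF. In experiment 2 the bFGF arrays lay on another slide than the FGFC arrays, and in experiments 1 and 3 the arms shared a slide. SALL4 and TERT were higher with FGFC in 3 of 3 experiments, by at most 0.11, as were 4557 of 42405 probes.

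In the long-term systems, LIN28A was higher with FGFC in 5 of 5 systems, at 4.24 against 3.98 in H1 in E8 Medium, 3.77 against 3.62 with MEF-CM, 4.08 against 3.83 in KhES-1, 4.04 against 3.72 in 201B7 and 4.24 against 4.13 in 253G1. Its mean difference was 0.22 (95% interval 0.02 to 0.42), with an adjusted p of 0.701 over all probes. POU5F1 (0.17, interval -0.04 to 0.37), SOX2 (0.16, -0.05 to 0.37) and LIN28B (0.20, -0.01 to 0.40) were also higher in 5 of 5 systems. The other POU5F1 probe differed by 0.11 (-0.11 to 0.33) and was higher in 3 of 5 systems. Of all probes, 4.56% were higher in 5 of 5. NANOG differed by 0.01 (-0.20 to 0.22) and was higher in 3 of 5 systems.

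TERT was lower with FGFC in 4 of 5 systems, with a mean difference of -0.11 (-0.37 to 0.15). PRDM14 varied most between systems, from 0.39 lower in KhES-1 and in H1 in MEF-CM to 0.85 higher in 253G1, where it was at -0.67 with FGFC and -1.53 with bFGF. None of the 50 single differences between FGFC and bFGF reached 2-fold. The share of all probes that did was 6.82% for H1 grown in E8 Medium, 4.38% with MEF-CM, 3.15% for KhES-1, 6.16% for 201B7 and 6.98% for 253G1. With 1 culture per arm in each system, the spread within an arm is not known, and a p that misses the threshold does not show that the factors act alike.

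**Figure D3:**
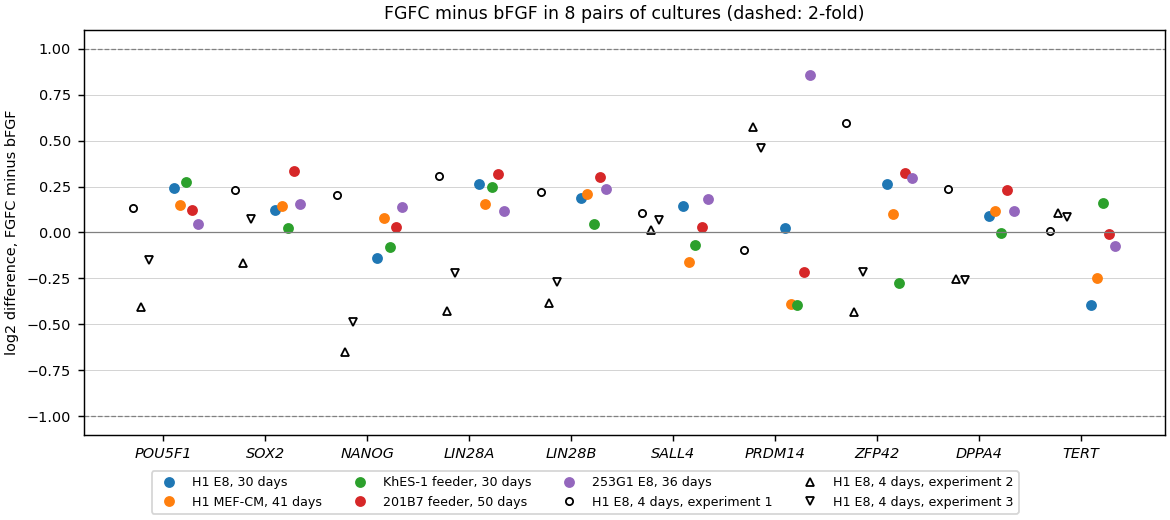
Log2 difference between FGFC and bFGF for each gene in 3 experiments of 4 days (open symbols) and 5 long-term systems (filled circles), with the 2-fold limits dashed. All points lie inside the 2-fold limits, and the widest spread between systems is that of PRDM14.

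Against their pre-cultures, the long-term cultures of 3 systems stayed close and those of the other 2 were higher. In H1 in E8 Medium 9 of 10 genes were higher after 30 days with bFGF and 9 with FGFC, with median differences of 0.49 and 0.59. In 201B7, 8 and 9 were higher after 50 days, with medians of 0.39 and 0.53. ZFP42 in H1 was at 4.02 before and at 5.08 with bFGF and 5.35 with FGFC after, the 2 of 100 such differences that reached 2-fold, and DPPA4 went from 3.85 to 4.64 and 4.73. TERT in H1 was at 2.39 before and at 2.38 and 1.99 after, and in 201B7 at 0.83 before and 1.40 and 1.39 after. The other 3 systems had medians between -0.09 and 0.13. The share of all probes higher than in the pre-culture, and their median difference, are not given here for any system. These are single cultures and were not tested. The pre-culture of H1 used here, that of experiment 1, had the lowest ZFP42 and DPPA4 of the 3 H1 pre-cultures in E8 Medium, which were at 4.02, 4.28 and 4.90 for ZFP42 and at 3.85, 3.97 and 4.48 for DPPA4. Against the mean of the 3, chosen after seeing the data, no gene reached 2-fold, ZFP42 was 0.68 higher with bFGF and 0.95 with FGFC, DPPA4 was 0.54 and 0.62 higher, and the medians were 0.32 and 0.46. In 201B7, the summed signal of the fibroblast markers ranged from 5.61 to 7.49 over the 3 cultures, against 3.47 to 4.08 in KhES-1 on feeder cells. Each of these markers averaged higher in 201B7. DCN (decorin), a fibroblast proteoglycan, averaged 6.07 against -3.62, COL1A1 4.27 against 3.11 and COL1A2 3.21 against 2.39. LUM averaged -6.86 against -7.65 and COL3A1 -6.98 against -7.78. The part of these values in the results for 201B7 was not tested.

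For some members levels differed between the culture systems, as they did for many other probes. Of the 10 members 4 passed in MEF-CM and 5 in 253G1, each against H1 in E8 Medium, and 2 in 201B7 against KhES-1. The shares of all probes were 37.3%, 35.9% and 31.4%. Among the 23 cultures with FGF, PRDM14, SALL4, SOX2 and TERT passed the test both in MEF-CM and in 253G1 against H1 in E8 Medium (11 cultures against 3 in each). How many of all probes passed in both is not given here. Each slide held arrays of 1 system, so that slide, line and medium cannot be told apart. The cultures of a system share a line and an origin, and p-values measure the spread between them.

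H1 in MEF-CM against H1 in E8 Medium compares media on the same line, at FGF concentrations that differ as well. Of 10 genes, 4 passed, 3 higher and 1 lower, where 37.3% of all probes passed, 10.0% higher and 27.2% lower. The median difference of all probes was -0.15, and -0.03 under quantile normalization. PRDM14 was at -0.16, 0.07 and -0.32 in MEF-CM (pre-culture, bFGF, FGFC), and in E8 Medium its lowest, median and highest values were -2.16, -1.76 and -1.19. The ranges did not overlap, and the difference of 1.53 ± 0.20 (adjusted p = 7.43e-06) passed under every alternative run.

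SALL4 was at 5.69, 5.91 and 5.75 in MEF-CM and between 4.87 and 5.32 in E8 Medium, a difference of 0.72 ± 0.13 (adjusted p = 0.000214). TERT was at 1.74, 1.68 and 1.43 against 1.99 to 2.50, a difference of -0.68 ± 0.13 (adjusted p = 0.000345). Both passed under every alternative run. SOX2, at 5.01, 4.82 and 4.96 against 4.32 to 4.86, overlapped and differed by 0.39 ± 0.14 (adjusted p = 0.0316), and this call was lost under 7 of 24 alternatives. These were the slide as a random block (0.0651), normexp (0.0560), the median of each array (0.0760), 3 cultures of each system (0.302), cultures with bFGF alone (0.0766), and the omission of the MEF-CM pre-culture (0.132) or the MEF-CM culture with FGFC (0.113). POU5F1 (-0.07, 95% interval -0.35 to 0.21), NANOG (0.18, -0.18 to 0.53), LIN28A (-0.07, -0.42 to 0.27) and LIN28B (0.00, -0.31 to 0.31) did not pass. The summed signals of 4 marker lists were higher in MEF-CM than in E8 Medium without overlap. They were 4.40 to 4.79 against 2.26 to 3.67 for fibroblast, 3.08 to 4.15 against -0.89 to 0.90 for endoderm, 3.41 to 3.78 against -0.31 to 1.12 for mesoderm and 4.98 to 5.40 against 2.71 to 3.89 for ectoderm. The sums follow the brightest genes of a list. Of the ectoderm markers TUBB3 (5.16 against 3.24) and PAX6 (-4.77 against -5.87) were higher. SOX1 (-7.98 against -6.84) and ZIC1 (-7.97 against -6.76) were lower. Of the fibroblast markers COL1A1 (3.93 against 1.83) and COL1A2 (3.15 against 2.18) were higher. COL3A1 (-8.09 against -6.61), LUM (-7.96 against -6.73) and DCN (-6.88 against -6.10) were lower. Of the endoderm and mesoderm markers, AFP (3.66 against -0.30) and ACTA2 (3.34 against -2.79) were higher in MEF-CM, as were SOX7, ALB, TBXT and TNNT2. SOX17 (-7.64 against -6.58) and PDGFRB (-0.52 against -0.26) were lower. Their part in the result was not tested.

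The induced line 253G1 and H1 shared E8 Medium and FGF concentration. Of 10 genes, 5 passed, 4 higher and 1 lower in 253G1, where 35.9% of all probes passed, 14.3% higher and 21.6% lower. TERT was at 1.33, 1.12 and 1.05 in 253G1 and between 1.99 and 2.50 in H1. The difference of -1.13 ± 0.13 (adjusted p = 1.66e-06) was the largest of the 10 and passed under every alternative run. SOX2, at 5.01, 5.03 and 5.18, differed by 0.53 ± 0.14 (adjusted p = 0.00525), and SALL4, at 5.42, 5.56 and 5.74, by 0.51 ± 0.13 (adjusted p = 0.00434), and neither overlapped H1. Under quantile normalization both lost the call (0.26 with adjusted p = 0.0622, and 0.27 with 0.0818).

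PRDM14 differed by 0.63 ± 0.20 (adjusted p = 0.0199) and ZFP42 by 0.68 ± 0.23 (adjusted p = 0.0288), with ranges that overlapped H1. PRDM14 no longer passed without the 253G1 pre-culture (0.0911) or its culture with FGFC (0.173), and ZFP42 without any 1 of the 3 cultures of 253G1 (0.0612 to 0.139). With the slide as a random block neither passed (0.0561 and 0.0721), nor did they with cultures with bFGF alone (0.104 and 0.0858), and ZFP42 did not under quantile normalization (0.0648). LIN28A (0.42, adjusted p = 0.0503) and LIN28B (0.38, adjusted p = 0.0563) lay just outside the threshold and passed without any 1 of 4 H1 cultures. These were experiment 1 with FGFC (0.0420 and 0.0492), the pre-culture of experiment 3 (0.0471 and 0.0491), and the 30-day cultures with bFGF (0.0399 and 0.0388) and FGFC (0.0167 and 0.0179). When H1 was represented by its 3 cultures of the long-term system, 1 of 10 passed, which was TERT. The summed signal of the endoderm markers was 1.97 to 2.38 in 253G1 against -0.89 to 0.90 in H1, with AFP averaging 2.11 against -0.30, and that of the ectoderm markers 4.22 to 4.55 against 2.71 to 3.89. The brightest ectoderm marker, TUBB3, averaged 4.36 against 3.24, while PAX6 averaged -5.81 against -5.87. Their part in the result was not tested.

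Lines on feeder cells were compared as 201B7 against KhES-1. Of 10 genes, 2 passed, both lower in 201B7, where 31.4% of all probes passed, 20.6% higher and 10.8% lower. The median difference of all probes was 0.34, and -0.05 under quantile normalization. NANOG was at 3.81, 4.29 and 4.32 in 201B7 (pre-culture, bFGF, FGFC) and at 5.03, 4.95 and 4.88 in KhES-1, a difference of -0.82 ± 0.22 (adjusted p = 0.00776). LIN28B was at 4.44, 4.61 and 4.91 against 5.24, 5.21 and 5.25, a difference of -0.58 ± 0.19 (adjusted p = 0.0248), and -0.32 (adjusted p = 0.0710) under quantile normalization.

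The groups did not overlap for either. NANOG did not pass without the 201B7 pre-culture (-0.65, adjusted p = 0.0559), and LIN28B did not without that culture (0.118), the 201B7 culture with bFGF (0.0672) or any 1 of the KhES-1 cultures (0.0573 to 0.0652). POU5F1 differed by -0.08 (adjusted p = 0.711) at the brighter probe and by -0.55 (adjusted p = 0.0395) at the other, so the 2 probes disagreed in the call. Without the 201B7 culture with FGFC, SOX2 passed too (-0.48, adjusted p = 0.0313). TERT differed by -0.01 (95% interval -0.34 to 0.32).

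**Figure D4:**
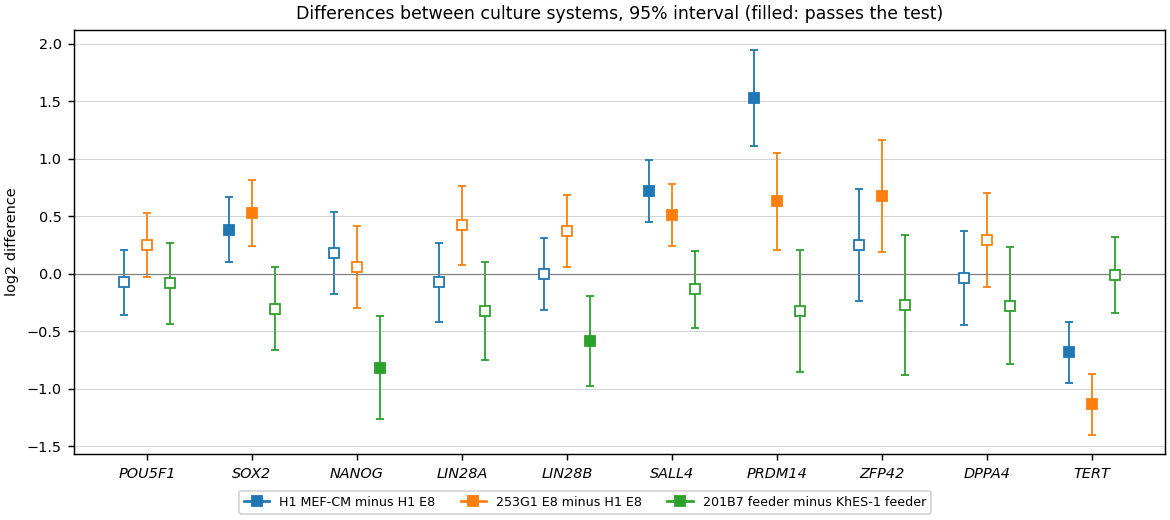
Log2 difference of each gene, with its 95% interval, for H1 in MEF-CM minus H1 in E8 Medium (blue), 253G1 minus H1 in E8 Medium (orange) and 201B7 minus KhES-1 on feeder cells (green). Filled squares passed the test. TERT lies below 0 and SALL4 and PRDM14 above 0 in both comparisons with H1 in E8 Medium, and NANOG and LIN28B lie below 0 in 201B7.

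The systems were set in order of their group means. KhES-1 had the highest mean of all groups with FGF for 7 genes, the exceptions being LIN28A and ZFP42, where 253G1 was highest, and TERT, where H1 in E8 Medium was. The share of all probes with their highest mean in KhES-1 is not given here. For POU5F1, SOX2 and PRDM14 its range overlapped that of the next group with FGF, 201B7. For SALL4 it was at 5.91 ± 0.04, and the next group with FGF, H1 in MEF-CM, was at 5.78 ± 0.11. For POU5F1 the order was KhES-1 (8.74 ± 0.17, SD, n = 3), 201B7 (8.66 ± 0.06), 253G1 (8.34 ± 0.04), H1 in E8 Medium (8.09 ± 0.23, n = 11), H1 in MEF-CM (8.01 ± 0.07), H1 without FGF (6.996 ± 0.41, n = 3) and differentiated H1 (2.73). KhES-1 and 201B7 did not differ beyond their spread, nor did both H1 groups with FGF. At the other POU5F1 probe the order of the groups with FGF was KhES-1 (5.97 ± 0.08), 253G1 (5.94 ± 0.14), H1 in MEF-CM (5.55 ± 0.02), H1 in E8 Medium (5.54 ± 0.29) and 201B7 (5.42 ± 0.17), so that 201B7 was lowest there and did not overlap KhES-1. For NANOG, KhES-1 (4.96 ± 0.08) stood apart, and H1 in MEF-CM (4.29 ± 0.04), 253G1 (4.17 ± 0.12), 201B7 (4.14 ± 0.28) and H1 in E8 Medium (4.11 ± 0.31) lay within their spread.

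For PRDM14 the order was KhES-1 (1.01 ± 0.29), 201B7 (0.69 ± 0.12), H1 in MEF-CM (-0.14 ± 0.20), 253G1 (-1.04 ± 0.44), H1 in E8 Medium (-1.67 ± 0.33) and H1 without FGF (-2.16 ± 0.47), with no overlap between 201B7 and H1 in MEF-CM or between the latter and 253G1. The 3 systems with conditioned medium or feeder cells thus lay above both systems in E8 Medium. For TERT, H1 in E8 Medium (2.30 ± 0.14) came first, followed by H1 without FGF (1.62 ± 0.07) and H1 in MEF-CM (1.61 ± 0.17), then KhES-1 (1.22 ± 0.08), 201B7 (1.21 ± 0.33) and 253G1 (1.16 ± 0.14), which did not differ beyond their spread.

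Among the other lists, 7 of 14 pluripotency-associated genes were higher in MEF-CM than in E8 Medium and none was lower, where 10.0% of all probes were higher and 27.2% lower. Among the 7 were UTF1, a chromatin-associated factor of pluripotent cells, higher by 2.16, and DPPA2, higher by 1.18. In either direction, 37.3% of all probes passed for MEF-CM, 35.9% for 253G1 and 31.4% for 201B7. Of the 14 genes 2 passed in 253G1 and 1 in 201B7. In 253G1, FOXD3 was higher than in H1 by 0.81, and in 201B7 CD9, a surface marker, was lower than in KhES-1 by 0.48. Of 11 telomerase and shelterin genes 1 passed in MEF-CM, 5 in 253G1 (4 higher and 1 lower) and 4 in 201B7. In 253G1, GAR1, NOP10 and WRAP53, parts of the telomerase complex, were higher than in H1 by 0.64, 0.61 and 0.50. TERF1 differed by -0.32, and the telomerase parts DKC1 and NHP2 did not pass (adjusted p = 0.220 and 0.0537, limma). TERF2 was lower in MEF-CM than in E8 Medium by 1.82, and in 201B7 against KhES-1 POT1 was higher by 1.36 and TERF2, TINF2 and TERF2IP, 3 further shelterin genes, were lower by 0.93, 0.77 and 0.34. In the let-7 pathway 4 of 13 genes passed in MEF-CM (1 higher and 3 lower), 2 in 253G1 and 1 in 201B7. IGF2BP3, IGF2BP1 and HMGA2 were lower in MEF-CM, by 0.62, 0.46 and 0.36, and ARID3B was higher in 253G1 by 1.02. In 201B7, DROSHA, a microRNA processing enzyme, was lower than in KhES-1 by 0.55. Among the 11 relatives 5 passed in MEF-CM, 4 in 253G1 and 1 in 201B7. The neural factor POU3F1 was lower in MEF-CM and in 253G1 than in H1 in E8 Medium, by 1.54 and 0.80. PRDM1 was higher in MEF-CM by 2.54, measured well above background on 2 of 22 arrays of H1 in E8 Medium, and SOX3, a SOXB factor, was higher in 253G1 by 1.21. CBFA2T2, the partner of PRDM14, was lower in 201B7 than in KhES-1 by 0.76.

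In the differentiated H1 culture all 10 genes were lower than in each of the 26 other cultures. The share of all probes that were also lowest in this culture is not given here. It is 1 culture, so there is no replicate check and no test. Against the mean of the 3 H1 pre-cultures, 8 of 10 genes were lower by 2-fold or more, where 29.7% of all probes differed by that much and 15.4% were lower. The median difference of the 10 genes was -3.41, and that of all probes -0.12.

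POU5F1 was at 3.41 and 2.06 on its 2 arrays, against 8.01, 8.00 and 8.11 in the pre-cultures, a mean difference of -5.30. The other probe of POU5F1 was at -0.54, against 5.43, 5.43 and 5.61. PRDM14 was not well above background on either array and was at least 18.6-fold lower. NANOG was at -0.22 against a mean of 4.15 ± 0.21 (SD, n = 3), a difference of -4.37. DPPA4 (-3.68), TERT (-3.61), LIN28A (-3.20) and ZFP42 (-2.50) followed, and SALL4, at 3.57 against 5.05 ± 0.18, was lower by 1.48.

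SOX2 and LIN28B were lower by less than 2-fold. SOX2 was at 3.76 against 4.32, 4.35 and 4.64, a difference of -0.67, and LIN28B at 3.67 against 3.99, 4.09 and 4.39, a difference of -0.49. The LIN28 genes, of like difference without FGF, were thus 3.20 and 0.49 below the pre-cultures here. Of the genes that rose without FGF, SOX2 was 2.04 and SALL4 2.22 lower in the differentiated culture than in the mean of the cultures without FGF. Of 14 other pluripotency-associated genes, 11 were lower by 2-fold or more and 0 higher, and of 13 genes of the let-7 pathway 1 was lower. Markers of other cell types were high in this culture, and all 4 ectoderm, all 4 endoderm, all 4 amnion and trophoblast, all 5 fibroblast and 3 of 4 mesoderm markers were well above background. PAX6 was at 1.91, HAND1 at 1.53, LUM at 3.88 and AFP at 3.79.

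**Figure D5:**
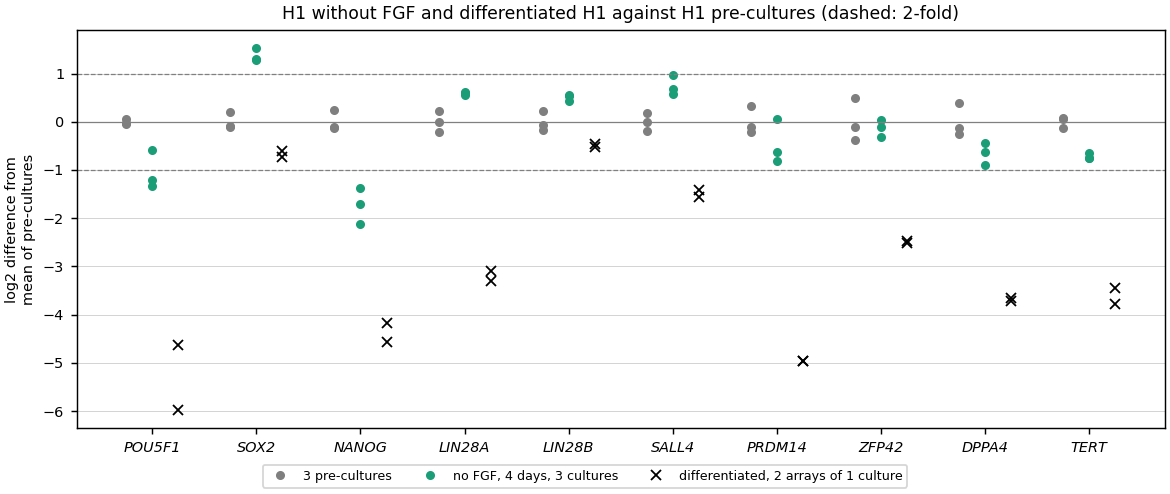
Log2 difference from the mean of the 3 H1 pre-cultures for each gene, in the pre-cultures themselves (grey), in 3 cultures of 4 days without FGF (green) and on the 2 arrays of the differentiated H1 culture (crosses), with the 2-fold limits dashed. POU5F1, PRDM14 and NANOG lie lowest in the differentiated culture, and SOX2 and LIN28B stay inside the 2-fold limits.

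The genes whose pattern over the 27 cultures was most like that of each member were found among 22552 probes with a symbol. As a description, Pearson's r is given over 27 cultures and then over the 23 with FGF. The cultures share lines and slides, and the differentiated culture lies far from the rest. For POU5F1 these were L1TD1 (0.99, then 0.89), VRTN (0.98, then 0.66) and DPPA4 (0.96, then 0.67). For NANOG they were HSPD1 (0.96, then 0.85), CRIPTO (0.96, then 0.58) and POU5F1 (0.95, then 0.76), and for DPPA4 L1TD1 (0.97, then 0.78), VRTN (0.97, then 0.80) and POU5F1 (0.97, then 0.80).

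The other members were most like genes outside the pluripotency lists. These were FAM161A, AUTS2 and LITAF for SOX2 (0.95, 0.95 and 0.94), SNRPN, SNURF and ORC1 for LIN28A (0.96, 0.95 and 0.95), HBS1L, USP1 and BMP2K for LIN28B (each 0.95), FRAT2, ZNF649 and SAMHD1 for SALL4 (0.94, 0.90 and 0.90), RABGAP1L, TRIM54 and HUS1B for PRDM14 (0.97, 0.96 and 0.96), NCL, RRP9 and TEX10 for ZFP42 (each 0.97) and EEF1AKMT4-ECE2, SORL1 and GALNT17 for TERT (each 0.94). Over the 23 cultures these genes had an r of 0.81 (SNURF) to 0.97 (HBS1L).

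Among the members, r over the 23 cultures with FGF was above 0 in 36 of 45 pairs, and the 9 pairs below 0 were those with TERT, from -0.36 with LIN28A to -0.80 with SOX2. Within the 11 cultures of H1 in E8 Medium, r was 0.98 between LIN28A and LIN28B and 0.96 between ZFP42 and DPPA4. There TERT had r of -0.65 with LIN28B and 0.01 with PRDM14.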

How the data were processed

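Total RNA of 27 cultures was hybridised by the authors to 54 Agilent one-colour arrays, 2 for each culture, and the deposited scanner files hold processed signal intensity from Feature Extraction 10.7.3.1. The authors' normalization set signals under 1 to 1, took log2 and subtracted the 75th percentile of each array. The same steps were run here on the deposited intensity, after control spots and outlier spots (266 to 623 an array) were left out, and gave the log2 normalized signal. Spots of a probe and the 2 arrays of a culture were averaged. A probe was taken as well above background where at least 0.5 of its spots were marked so. No probe was saturated.

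Groups came from the sample titles. Differences were fitted in limma 3.58.1 (R 4.3.3) with lmFit and eBayes over 42405 probes, with Benjamini-Hochberg adjusted p under 0.05 as the threshold. The 4-day comparisons used 12 H1 cultures in E8 Medium, the long-term comparison 10 cultures with the system as a block, and the comparisons of systems 23 cultures with FGF. The replicate number paired the cultures without FGF with those with bFGF or FGFC, as they share a passage in the titles and their deviations from the group means correlated in all 6 pairs (r of 0.19 to 0.32). The main fit of the 4-day comparisons left this block out, and fits with it are given where they change a call. The differentiated culture was compared by a 2-fold limit without a test. Nothing in the labels says that the cultures of a group are independent beyond their experiment numbers, so p-values measure the spread between these cultures. Symbols came from RefSeq accessions, for 25715 probes. Named were the members and, for each further list and comparison, up to 3 genes with the largest rise and 3 with the largest fall among those past the test, a part of which is given and 1 of which is not reported here, and for each member the 3 genes most like it. The members and lists were chosen with earlier results of these data known. Alternatives were background correction (normexp, offset 50), quantile and median scaling, floors and filters, single arrays, blocks, subsets of cultures and the omission of each culture or experiment. The fit was tested on simulated data. Intensities carry no read depth, and the number of cultures limits the precision.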

Additional observations from a re-analysis of the deposited data

Results flagged for a closer look

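In 30 groups of 5 long-term systems, each gene's difference between FGFC and bFGF and its differences from the pre-culture were searched for a system far from the others by Dixon's criterion, which chance meets in about 1 in 20 groups. There were 3. POU5F1 with FGFC, at its brighter probe, was 0.52 above the pre-culture in H1 in E8 Medium, against -0.03 to 0.05 in the other 4 systems. At its other probe H1 in E8 Medium (6.03 against 5.43), 201B7 (5.57 against 5.23) and 253G1 (6.10 against 5.84) were above their pre-cultures. H1 in MEF-CM (5.53 against 5.56) and KhES-1 (5.92 against 6.06) were below theirs. ZFP42 with bFGF was 1.06 above the pre-culture in H1 in E8 Medium, against -0.15 to 0.13 elsewhere. That pre-culture had the lowest ZFP42 of 3, and the difference was 0.80 and 0.19 against the pre-cultures of experiments 2 and 3. TERT with bFGF was 0.57 above the pre-culture in 201B7, against -0.20 to -0.01 elsewhere. Each rests on 1 culture per arm and 1 pre-culture, and no cause was tested.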

How the results depend on the processing

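Of 70 member values (10 genes in 7 comparisons), 23 passed the test and none of these changed sign under any alternative run. Of the 47 others, 19 changed sign under at least 1. Against a count of 5 members without FGF versus bFGF, quantile normalization gave 8 and the omission of 1 experiment gave 1 to 3. Against 7 versus FGFC, the median of each array gave 4, a fit of the 2 arms alone 2, and the omission of 1 experiment 1 to 6. Against 5 in 253G1 versus H1, quantile normalization gave 3, the median 8, 3 cultures of each system 1, cultures with bFGF alone 2, the slide as a random block 3, and the omission of 1 culture 3 to 7. Against 2 in 201B7 versus KhES-1, quantile normalization gave 1, the median 5, and the omission of 1 culture 0 to 3. The counts for MEF-CM (3 or 4), for FGFC versus bFGF (0) and for the differentiated culture (8) stayed within 1.5 times. The cause was not tested.

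With the experiment number as a block, the counts were 5 without FGF versus bFGF, 5 versus FGFC and 0 for FGFC versus bFGF. The block removed the calls of LIN28A and LIN28B versus FGFC and changed no other call of a member. Between bFGF and FGFC cultures of the same number, r of the deviations was 0.15, 0.08 and 0.18, so the pairing is less clear there.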
